A study of Mus musculus with 12 samples.

Results

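The 7 genes Pramel5, Pramel6, Pramel7, Oog1, Oog2, Oog3 and Oog4 belong to the PRAME family, and their RNA was followed in mouse embryos through 5 stages, from the pronuclear embryo to E16.5. They were found by looking for each symbol in the gene symbol column of a Clariom S Mouse array, an array with gene-level probe sets for well-annotated genes. All 7 of the 7 symbols were on the array, each in 1 probe set. Genes with a probe set that names them alone numbered 21156, among them every member but Oog1. The probe set of Oog1 also lists Gm2042, another gene model on chromosome 12, so Oog1 was added to those genes and 21157 probe sets were compared.

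Embryos came from superovulated females mated naturally, and the plug day counted as E0.5. Whole embryos were pooled for 2 arrays of pronuclear embryos (E0.5), 2 of 2-cell embryos (E1.5) and 2 of morulae (E2.5), called biological replicates in the labels, and 3 single embryos were profiled for each of E10.5 and E16.5. Pronuclear embryos were washed and kept in KSOM, an embryo culture medium, and the later embryos were dissected from their mothers and rinsed. The labels give no strain, no number of embryos per pool and no treatment that sets one stage apart from another. Each array was labelled from 2 ng of total RNA, so a signal is a share of that RNA and not a number of transcripts per embryo. In such bulk RNA, fewer cells that express a gene and less RNA of it per cell cannot be told apart.

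PRAME, preferentially expressed antigen in melanoma, is the human founder of a family of leucine-rich repeat proteins that grew to many copies in rodents. Human PRAME is a substrate receptor of a ubiquitin ligase built on cullin 2, which marks proteins for destruction. Mouse PRAMEL7 is known from embryonic stem cells and the early embryo for directing the DNA methylation cofactor UHRF1 to that ligase, and Pramel6 and Pramel7 are known as genes that the LIF and STAT3 pathway turns on. The Oog genes encode oogenesins, proteins of growing oocytes and early embryos, and mouse OOG1 is known to bind the Ral exchange factor RALGDS and Ras.

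Signals are deposited log2 values, with array medians between 6.19 and 6.59. Changes are in log2 units, each ± the standard error from the fit, and adjusted p-values come from limma with Benjamini-Hochberg adjustment over all 21157 probe sets, with a threshold of 0.05. Genes of olfactory, vomeronasal and trace amine receptors, 1419 in all, gave a measure of background. The 95th percentile of their stage means was 5.85 at the pronuclear stage, 6.36 at the 2-cell stage, 6.10 at the morula stage, 5.39 at E10.5 and 5.23 at E16.5, and a signal below it is described as within the receptor range. Of 17 stage markers, 16 had their highest mean at the stage they mark. The exception was Fgf4, on the morula list, with a mean of 6.67 at the 2-cell stage and 5.85 in the morula (−0.82 ± 0.443, adjusted p = 0.16). Hand2, on the E10.5 list, passed neither from the morula to E10.5 (adjusted p = 0.289) nor from there to E16.5 (adjusted p = 0.125). The same held for Col2a1, on the E16.5 list (adjusted p = 0.0649 and 0.243). The oocyte gene Zp3 fell from 14.31 at the pronuclear stage to 7.84 in the morula, Zscan4d was highest at the 2-cell stage (10.46), Cdx2 in the morula (10.52), the embryonic globin Hbb-y at E10.5 (19.41) and albumin, Alb, at E16.5 (19.38).

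All 7 genes were signals of the early embryo, in opposite orders. The 3 Pramel genes started low, rose to the 2-cell stage and were highest in the morula, while the 4 Oog genes were high in the pronuclear or 2-cell embryo and had fallen far by the morula. At E10.5 and E16.5 every member was at or near the receptor range. All 7 differed between stages in the limma F test, a test that 78.9% of all probe sets passed. In the authors' deposited table the F test gave false discovery rates between 8.69e-15 for Oog3 and 8.17e-10 for Pramel5.

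**Figure D1:**
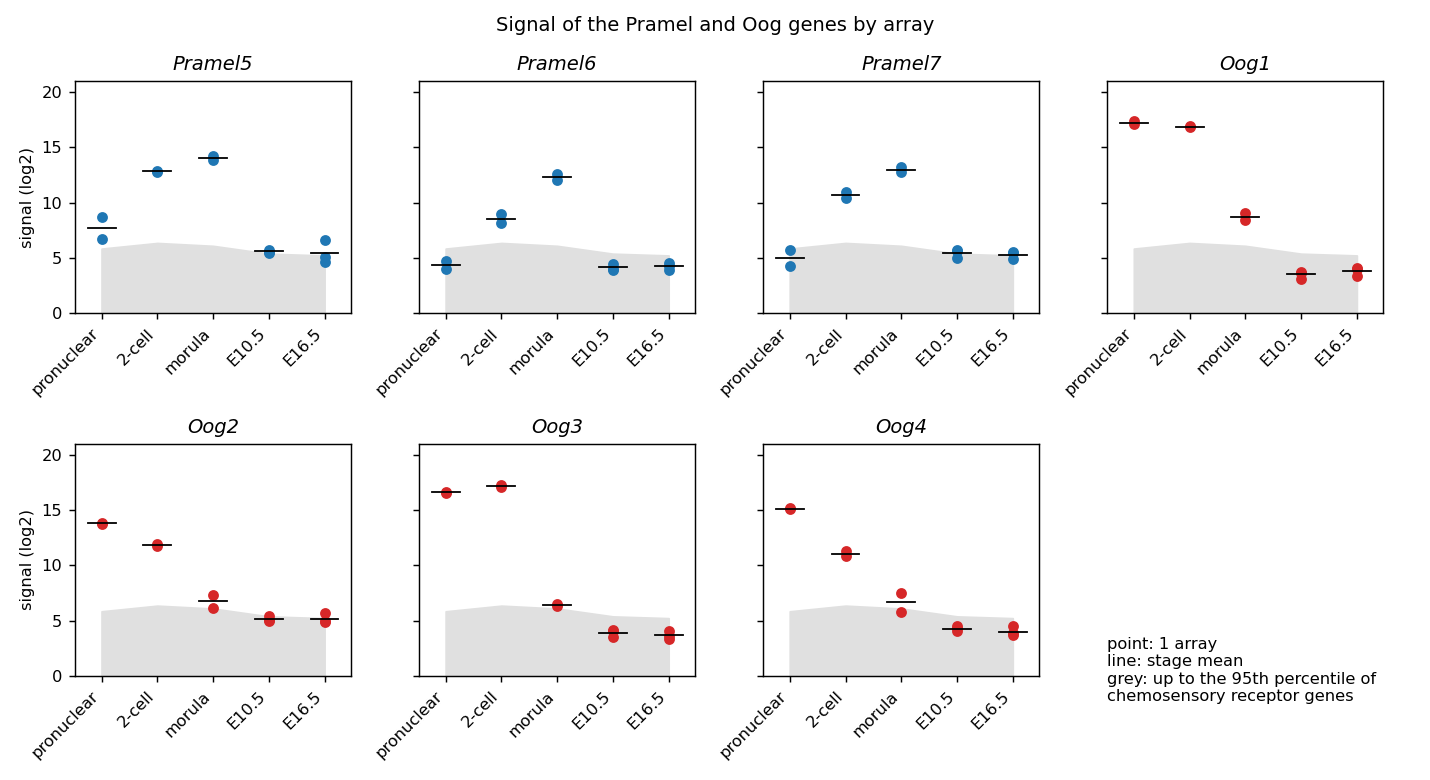
Signal (log2) of each of the 7 genes on each array, by stage: points are arrays, lines are stage means, and the grey area ends at the 95th percentile of chemosensory receptor genes. The Pramel genes (blue) are highest in the morula, at 14.07, 12.34 and 13.00, and the Oog genes (red) at the pronuclear or 2-cell stage, at 17.24, 13.79, 17.21 and 15.13.

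Pramel6 lies on chromosome 2, 87506565 to 87510872 on the plus strand of mm10, next to Pramel7. Its signals were 4.75 and 4.02 in the pronuclear pools, 8.15 and 8.95 in the 2-cell pools, and 12.64 and 12.04 in the morula pools. At E10.5 they were 3.93, 4.02 and 4.49, and at E16.5 3.92, 4.51 and 4.30. The 3 early stages did not overlap, and the pronuclear, E10.5 and E16.5 arrays shared a range that lay within that of the receptors. Pramel6 rose by 4.17 ± 0.371 from the pronuclear to the 2-cell stage (adjusted p = 4.27e-07) and by 3.79 ± 0.371 from there to the morula (adjusted p = 8e-07). In the order of its levels, the pronuclear stage was followed by E16.5 and E10.5, and neither step between these neighbours passed (0.15 ± 0.339, adjusted p = 0.739, and 0.09 ± 0.303, adjusted p = 0.862).

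Pramel7, on the minus strand of chromosome 2 from 87489087 to 87497093, took the same course from a pronuclear stage whose pools stood apart. Its signals were 5.74 and 4.24 in the pronuclear pools, 10.46 and 10.96 in the 2-cell pools, and 12.77 and 13.23 in the morula pools. The E10.5 embryos had 5.03, 5.60 and 5.70, and those of E16.5 4.89, 5.45 and 5.52. Both morula pools lay above both 2-cell pools, and every other array was far below these 4. Pramel7 rose by 5.73 ± 0.433 to the 2-cell stage (adjusted p = 8.11e-08), and its rise from there to the morula was 2.28 (adjusted p = 0.000518). Its means at E10.5 (5.44) and E16.5 (5.29) were just above the receptor range, and neither differed past the threshold from its neighbour in the order (0.16 ± 0.354 between E10.5 and E16.5, adjusted p = 0.783, and 0.30 ± 0.395 between E16.5 and the pronuclear stage, adjusted p = 0.546).

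Pramel5 lies apart from the other 2, on the minus strand of chromosome 4 from 144270633 to 144280488, inside a cluster of PRAME family genes. Its signals were 6.73 and 8.74 in the pronuclear pools, 12.81 and 12.84 in the 2-cell pools, and 13.90 and 14.24 in the morula pools. The embryos of E10.5 gave 5.49, 5.54 and 5.77, and those of E16.5 4.67, 6.59 and 5.11. The pronuclear pools differed by about 2 log2 units, both above the receptor range, and the second E16.5 array was higher than the other two. Pramel5 rose by 5.09 ± 0.586 to the 2-cell stage (adjusted p = 5.54e-06). The step from the 2-cell stage to the morula, 1.24 ± 0.586, did not pass (adjusted p = 0.108), although the pools did not overlap. It passed in a fit of only the 4 arrays of these stages (adjusted p = 0.0253), and over all alternatives its adjusted p ranged from 0.0253 to 0.292. Unlike Pramel6, Pramel5 had a pronuclear mean (7.73) above that of E10.5, by 2.14 ± 0.535 (adjusted p = 0.00296). Whether that difference differs between the genes was not tested.

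Oog1 lies on the plus strand of chromosome 12, 87602665 to 87608850. Its signals were 17.11 and 17.37 in the pronuclear pools, 16.82 and 16.90 in the 2-cell pools, and 9.03 and 8.41 in the morula pools. In E10.5 embryos they were 3.74, 3.67 and 3.14, and at E16.5 4.11, 3.42 and 4.04. The pronuclear and 2-cell pools lay close together, the morula pools between these and the later embryos, and the later embryos within the receptor range. The step from the pronuclear to the 2-cell stage was −0.38 ± 0.335 and did not pass (adjusted p = 0.436), and the fall to the morula was −8.14 ± 0.335 (adjusted p = 1.06e-10). The probe set named Gm2042 alone ran alongside, with means of 17.17, 16.54, 8.19, 3.59 and 3.57 in stage order, and its signal differed from that of the Oog1 probe set by at most 0.91 on any array. The probe set of Oog1 names both genes, so their RNA cannot be told apart by it.

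Oog3, on the minus strand of chromosome 4 from 144157556 to 144162663, was high at both the pronuclear and the 2-cell stage, as Oog1 was. Its signals were 16.64 and 16.57 in the pronuclear pools, 17.30 and 17.11 in the 2-cell pools, and 6.35 and 6.49 in the morula pools. The 3 embryos of E10.5 had 4.09, 4.18 and 3.49, and those of E16.5 3.65, 4.05 and 3.38. Both 2-cell pools were above both pronuclear pools, by 0.60 ± 0.315, which did not pass (adjusted p = 0.161). From the 2-cell stage to the morula Oog3 fell by 10.78 ± 0.315 (adjusted p = 4.5e-12), which was number 9 among the falls of all probe sets at that step, and its morula pools were barely above the receptor range.

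Oog2 and Oog4 had already fallen at the 2-cell stage. Whether that step differs between these genes and Oog1 or Oog3 was not tested. Oog2, on the plus strand of chromosome 4 from 144190717 to 144196934, had signals of 13.81 and 13.77 in the pronuclear pools, 11.78 and 11.91 in the 2-cell pools, and 6.18 and 7.32 in the morula pools. E10.5 embryos had 5.04, 4.94 and 5.43, and those of E16.5 5.00, 5.68 and 4.90. Each early stage lay wholly below the one before it, and the later embryos overlapped each other. Oog2 fell by 1.94 ± 0.375 to the 2-cell stage (adjusted p = 0.000698) and fell by 5.10 ± 0.375 from there to the morula (adjusted p = 3.75e-08). Oog4, on the minus strand of chromosome 4 from 143437164 to 143450324, had signals of 15.11 and 15.15 in the pronuclear pools, 11.26 and 10.85 in the 2-cell pools, and 7.52 and 5.79 in the morula pools. At E10.5 they stood at 4.03, 4.35 and 4.49, and at E16.5 3.67, 4.49 and 3.85. Its pronuclear pools were almost equal, its morula pools were far apart, and 1 of these lay within the receptor range. Oog4 fell by 4.07 ± 0.450 to the 2-cell stage (adjusted p = 3.69e-06) and fell by 4.41 ± 0.450 to the morula (adjusted p = 1.21e-06).

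From the pronuclear to the 2-cell stage, then, 3 of the 7 members rose and 2 fell, at a step where 15.6% of all probe sets rose and 20.0% fell. The 3 that rose were the Pramel genes and the 2 that fell were Oog2 and Oog4, while the median change of all probe sets was −0.03. From the 2-cell stage to the morula, 2 members rose and 4 fell, against 20.0% and 20.0% of all probe sets, and the median of all probe sets was 0.11. Over both steps together all 3 Pramel genes rose, by 6.33 ± 0.586 (Pramel5, adjusted p = 2.28e-07), 7.95 ± 0.371 (Pramel6, adjusted p = 1.28e-10) and 8.01 ± 0.433 (Pramel7, adjusted p = 6.3e-10), where 23.8% of all probe sets rose. All 4 Oog genes fell over the same span, with changes of −8.52 (Oog1), −7.04 (Oog2), −10.18 (Oog3) and −8.48 (Oog4), with adjusted p-values from 2.81e-12 to 5.33e-10, where 23.9% of all probe sets fell. With 2 pools per stage, a single pool weighs heavily, and the net rise of Pramel5 ranged from 5.33 to 7.34 as single arrays were left out.

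Markers of cells that can be carried along with early embryos were read beside this change. Of 6 cumulus and granulosa cell genes, 1 fell from the pronuclear to the 2-cell stage, the inhibin subunit gene Inha, from 11.03 to 7.38, and the summed log2 signal of the list was 38.01 and 38.06 in the pronuclear pools and 33.43 and 33.71 in the 2-cell pools. Of 4 sperm genes 1 fell, the protamine gene Prm2, from 9.81 to 8.01, with summed log2 signals of 22.14 and 24.06 in the pronuclear pools and 20.22 and 20.72 in the 2-cell pools. Of 3 placental genes 1 rose and 1 fell, both between means below 6. From the 2-cell stage to the morula, the step at which all 4 Oog genes fell, 1 of the cumulus and granulosa cell genes fell (Inhba, another inhibin subunit gene) and 1 rose (Has2, a hyaluronan synthase gene), and Prm2 fell again, by 2.08 ± 0.509 (adjusted p = 0.00376). The summed log2 signals in the morula pools were 31.52 and 33.19 for the cumulus and granulosa list and 18.29 and 20.02 for the sperm list. Over both steps together 3 of the 6 cumulus and granulosa cell genes and 1 of the 4 sperm genes fell. Of all probe sets, 15.6% rose and 20.0% fell at the first step, and 20.0% rose and 20.0% fell at the second. Over both together 23.9% fell. Inha fell at the first step, where Oog2 and Oog4 fell and the changes of Oog1 and Oog3 did not pass. At the second step, where all 4 Oog genes fell, Inha changed by −0.14 (adjusted p = 0.77) and Inhba by −1.46 (adjusted p = 0.00526). The part of these markers in the falls of the Oog genes was not tested.

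From the morula to E10.5 all 7 members fell, at a step where 26.7% of all probe sets fell and 25.2% rose. The falls of the Pramel genes were −8.47 ± 0.535 (Pramel5, adjusted p = 3.34e-09), −8.19 ± 0.339 (Pramel6, adjusted p = 3.36e-11) and −7.55 ± 0.395 (Pramel7, adjusted p = 4.12e-10). Among the Oog genes Oog1 fell by 5.20 ± 0.305 (adjusted p = 1.46e-09), Oog3 fell by 2.50 ± 0.287 (adjusted p = 2.38e-06), Oog4 fell by 2.36 ± 0.410 (adjusted p = 0.000161) and Oog2 fell by 1.61 ± 0.342 (adjusted p = 0.00094). The last 2 values rest on morula pools that differed: without the first morula pool the change of Oog4 was −1.50 (adjusted p = 0.0045) and that of Oog2 −2.18, and without the second they were −3.23 and −1.04 (adjusted p = 0.0305 for Oog2). This step also separates pools from single embryos, and the array names carry one date for all early arrays and another for all later ones, so stage, pooling and that date cannot be told apart here.

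Between E10.5 and E16.5 limma called 0 of the 7 members, against 17.5% of all probe sets that rose and 20.3% that fell. None had an unadjusted p under 0.05 either (0 of 7, the lowest being 0.237), and the changes ran from −0.28 for Oog4 to 0.34 for Oog1, with the arrays of the 2 stages overlapping for every member. At both stages 2 of the 7 members, Pramel5 and Pramel7, had means above the receptor range, by less than 0.3. The authors' deposited table flags Pramel5, Pramel7 and Oog2 as expressed at E10.5 and E16.5 and the other members as not expressed there, by a rule not stated in the sources used here. A low steady level and background cannot be told apart for these signals.

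**Figure D2:**
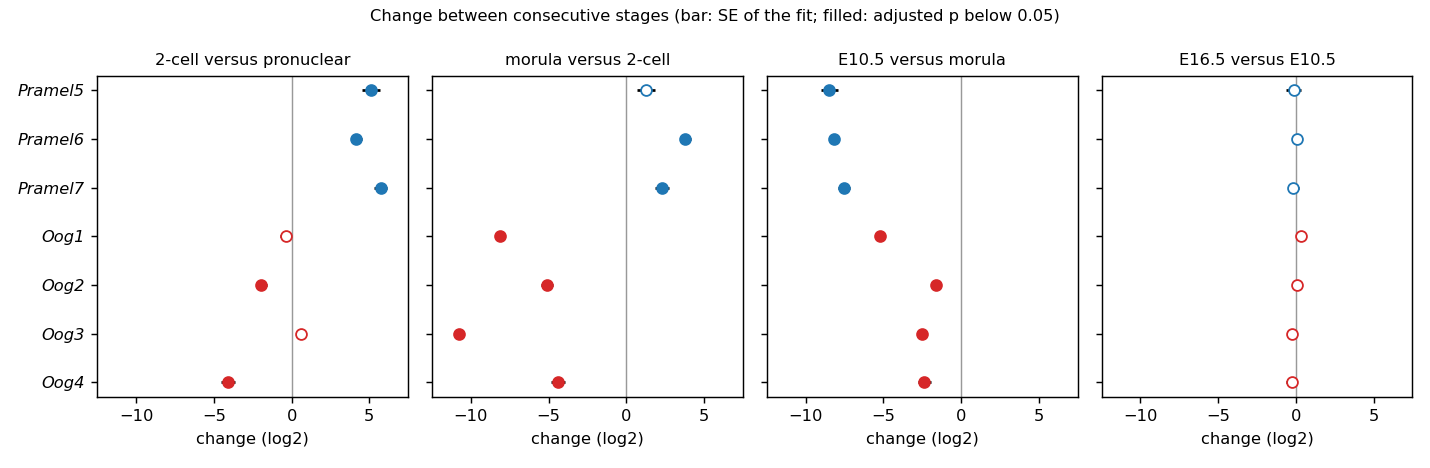
Change (log2) of each of the 7 genes between consecutive stages, with bars for the standard error and filled points for an adjusted p below 0.05. The Pramel genes lie right of 0 in the first pair of steps and the Oog genes left of it at the second, from −4.41 to −10.78, while all 7 lie left of 0 from the morula to E10.5 and none is filled between E10.5 and E16.5.

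Across the 12 arrays the 3 Pramel genes correlated with each other at Pearson's r between 0.93 and 0.982, and the 4 Oog genes at r between 0.944 and 0.986. Between a Pramel and an Oog gene r lay between 0.112 (Pramel7 and Oog4) and 0.562 (Pramel5 and Oog1). These are descriptions of 12 arrays in 5 stages, and the arrays of a stage share that stage.

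The genes outside the list that ran most alike were sought over all other genes, by Pearson's r over the same arrays. For Oog3 they were Obox5 (r = 0.999), an oocyte homeobox gene, Tcl1b2 (0.9981) and Oosp1 (0.9976), an oocyte secreted protein gene; Obox5 had means of 17.37, 17.77 and 7.40 at the 3 early stages. For Oog4 they were Spata21 (0.9965), the zona pellucida gene Zp1 (0.9947) and Nlrp9b (0.994), and for Oog2 the family member C87977 (0.9968), the F-box gene Fbxw28 (0.996) and Olah (0.9958), a thioesterase gene. For Oog1 they were another family member, C87414 (0.9983), then Gm2042 (0.9978) and Unc50 (0.9977), which unlike Oog1 kept a mean of 10.38 at E10.5. The Pramel genes ran with another set. For Pramel5 these were the alkaline phosphatase gene Alppl2 (0.9909), Fbxo15 (0.984), an F-box gene known from embryonic stem cells, and Mfsd5 (0.9832). For Pramel6 they were the homeobox gene Crxos (0.9919), Calcoco2 (0.9859), an autophagy receptor gene, and Uap1l1 (0.9845), and for Pramel7 the lysosomal transporter gene Spns1 (0.9956), Trim43a (0.9918) and Calcoco2 again (0.9899). Calcoco2 rose from a mean of 4.30 in the pronuclear pools to 13.14 at the 2-cell stage and 17.29 in the morula.

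The DNA just upstream of the 4 Oog genes, Pramel6 and Pramel7 is shown because the 4 Oog promoters were found to share short words. Some relatives hold these words too. The promoter of Pramel5 was searched as well but is not printed. Whether the words bear on the course of the RNA was not tested. RefSeq promoters of GRCm38.p6, which has the coordinates of mm10, were found for 7 of 7 members, each running from 250 bases before to 50 bases after the start site. The 135 bases before the start are printed, 5′ to 3′ on the gene's strand, for the 4 Oog genes and, for contrast, for Pramel6 and Pramel7. Capitals mark words of 8 or more bases that all 4 Oog promoters hold on the gene's strand.
Oog1, chr12:87602530-87602664, plus strand: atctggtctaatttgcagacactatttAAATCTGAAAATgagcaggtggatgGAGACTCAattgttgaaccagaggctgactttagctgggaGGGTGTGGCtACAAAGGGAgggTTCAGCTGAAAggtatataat
Oog2, chr4:144190582-144190716, plus strand: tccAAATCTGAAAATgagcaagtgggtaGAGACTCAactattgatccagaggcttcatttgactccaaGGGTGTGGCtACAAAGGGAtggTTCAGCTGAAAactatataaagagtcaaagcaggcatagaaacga
Oog3, chr4:144162652-144162786, minus strand: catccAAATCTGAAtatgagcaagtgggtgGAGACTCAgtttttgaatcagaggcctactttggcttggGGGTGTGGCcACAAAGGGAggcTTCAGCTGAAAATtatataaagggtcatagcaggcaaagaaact
Oog4, chr4:143450325-143450459, minus strand: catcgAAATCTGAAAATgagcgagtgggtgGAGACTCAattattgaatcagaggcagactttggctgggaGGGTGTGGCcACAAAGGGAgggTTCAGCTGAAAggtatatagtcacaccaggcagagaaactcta
Pramel6, chr2:87506430-87506564, plus strand: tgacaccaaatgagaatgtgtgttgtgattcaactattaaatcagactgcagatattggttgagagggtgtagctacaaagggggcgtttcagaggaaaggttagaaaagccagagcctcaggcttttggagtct
Pramel7, chr2:87492419-87492553, minus strand: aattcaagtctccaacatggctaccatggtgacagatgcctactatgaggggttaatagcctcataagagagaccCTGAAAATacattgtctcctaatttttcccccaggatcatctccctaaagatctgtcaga

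The 4 Oog promoters shared 6 such words, AAATCTGAA, CTGAAAAT, GAGACTCA, GGGTGTGGC, ACAAAGGGA and TTCAGCTGAAA, and in each of the 4 the last 4 of these stood in the same order, close to the start. AAATCTGAA and CTGAAAAT overlap each other in Oog1, Oog2 and Oog4, and CTGAAAAT overlaps TTCAGCTGAAA in Oog3. Searched on both strands of all 32851 RefSeq promoters of the same length, the words were found in 0.426%, 1.49%, 1.43%, 1.35%, 0.493% and 0.0517% of them, in the order given. Only exact matches were counted, here and for the relatives below. Of the Pramel promoters, that of Pramel7 held CTGAAAAT and those of Pramel5 and Pramel6 held none of the 6 exactly. The printed stretch of Pramel6 reads gggtgtagctacaaagggg, close to the GGGTGTGGC and ACAAAGGGA that follow each other in the Oog promoters. Over the whole 300 bases the Oog promoters were 64.6% to 76.7% identical in pairs (median 68.7% of 6 pairs). The other 15 pairs among the 7 were 44.4% to 58.7% identical (median 47.7%). Among these 15, the pairs of Pramel6 with an Oog gene were 52.9% to 58.7% identical. The words were chosen by reading these promoters, so that all 4 hold them is how they were found, and related copies share letters by descent.

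Motifs of known factor classes were looked for in the same windows on both strands. The E-box CANNTG, the class to which the oocyte factor FIGLA binds, was in all 7 promoters and in 72.3% of all promoters. TAATTG, a homeobox core, was in those of Oog3 and Oog4 and in 8.0% of all. GGATTA, the core of OTX and OBOX type homeobox factors, was in that of Pramel5 and in 7.06% of all, and TATAAA was in those of Oog2 and Oog3, close to the start, and in 13.6% of all. The E-box overlaps TTCAGCTGAAA, whose middle letters fit CANNTG. The start site used for Pramel7 lies 4675 bases inside the gene as the deposited annotation draws it, so its window may not be the promoter that embryos use.

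The array holds other members of the family, and their course was set beside that of the 7. By symbol or gene description 9 relatives were found, and 20 more through their RefSeq accessions, a step added after their values had been seen. These 29 relatives and the 7 members make 36 family genes. Many carry provisional names, for which RefSeq's Pramel symbols are given here. From the pronuclear to the 2-cell stage 17 of the 29 relatives rose, 9 fell and 3 did not pass, with a median change of 2.67. From the 2-cell stage to the morula 2 rose, 22 fell and 5 did not pass, with a median of −3.21, and from the morula to E10.5 0 rose and 26 fell. Over the whole span from the pronuclear stage to the morula 14 rose and 11 fell. Of all probe sets, 15.6% rose and 20.0% fell to the 2-cell stage, and 20.0% rose and 20.0% fell from there to the morula. To E10.5 25.2% rose and 26.7% fell, and over the whole span 23.8% rose and 23.9% fell.

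A further course was thus seen among the relatives, with its high point at the 2-cell stage. The mean was highest there for 17 of the 29 relatives, against 1 of the 7 members (Oog3), while 10 relatives and 3 members (Oog1, Oog2 and Oog4) were highest at the pronuclear stage and 2 relatives and the 3 Pramel members in the morula. Of all probe sets, 15.8% were highest at the 2-cell stage, 22% at the pronuclear stage and 24.3% in the morula. A highest mean is not a called peak. Among the 17, Pramef17 (Pramel14), Gm13128 (Pramel30), Gm16429 (Pramel36), Gm7971 (Pramel49) and A430089I19Rik (Pramel39) did not pass to the morula (adjusted p from 0.0995 to 0.987). Pramef8 (Pramel12) and Gm10436 (Pramel51) did not pass at the first step (adjusted p = 0.419 and 0.844). B020004J07Rik (Pramel17) had the largest rise of the relatives to the 2-cell stage, from 5.08 to 13.57 (8.49 ± 0.268, adjusted p = 2.02e-11), and fell again by −6.02 to the morula. Gm12794 (Pramel19) stood at 7.37, 14.50 and 8.80 at the 3 early stages, and Pramef25 (Pramel16) at 5.25, 11.05 and 7.84. Prame itself, the mouse namesake, had means within the receptor range at every stage, the highest being 6.10 at the 2-cell stage.

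Pramel4 and Gm3139 (Pramel42) were the relatives with the morula course of the Pramel members. Pramel4 had means of 6.72, 12.06 and 14.28 at the 3 early stages and rose at both steps (5.35 ± 0.402, adjusted p = 7.67e-08, and 2.21 ± 0.402, adjusted p = 0.000361). Gm3139 had means of 10.92, 14.11 and 15.31 at these stages and fell by 11.10 ± 0.263 to E10.5 (adjusted p = 1.29e-13), the largest fall of the relatives at that step.

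The 4 relatives with the highest signals, which were named by rule, fell to the morula as the Oog genes did. Signals of different probe sets do not rank the RNA levels of their genes. Gm3259 (Pramel47) had means of 17.70, 16.29 and 8.45 at the 3 early stages, Gm13023 (Pramel25) of 17.09, 16.02 and 8.96, and C87414 (Pramel34) of 16.99, 16.17 and 9.44. Gm10436 (Pramel51) had means of 16.84, 16.99 and 8.85, with a first step of 0.15 ± 0.456 that did not pass (adjusted p = 0.844). The first steps of the other 3 were small, at −1.41 ± 0.371 (adjusted p = 0.00727), −1.07 ± 0.356 (adjusted p = 0.0285) and −0.82 ± 0.301 (adjusted p = 0.046). Over the alternatives the adjusted p of Gm13023 ranged from 0.0138 to 0.117 and that of C87414 from 0.00475 to 0.153, and both calls were lost when any 1 of the pronuclear or 2-cell pools was left out, that of C87414 also without any 1 of the E10.5 arrays or the third E16.5 array. Gm13084 (Pramel26) fell from 15.51 over 12.18 to 6.03, with a change of −9.48 from the pronuclear stage to the morula, the largest such fall of the relatives.

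**Figure D3:**
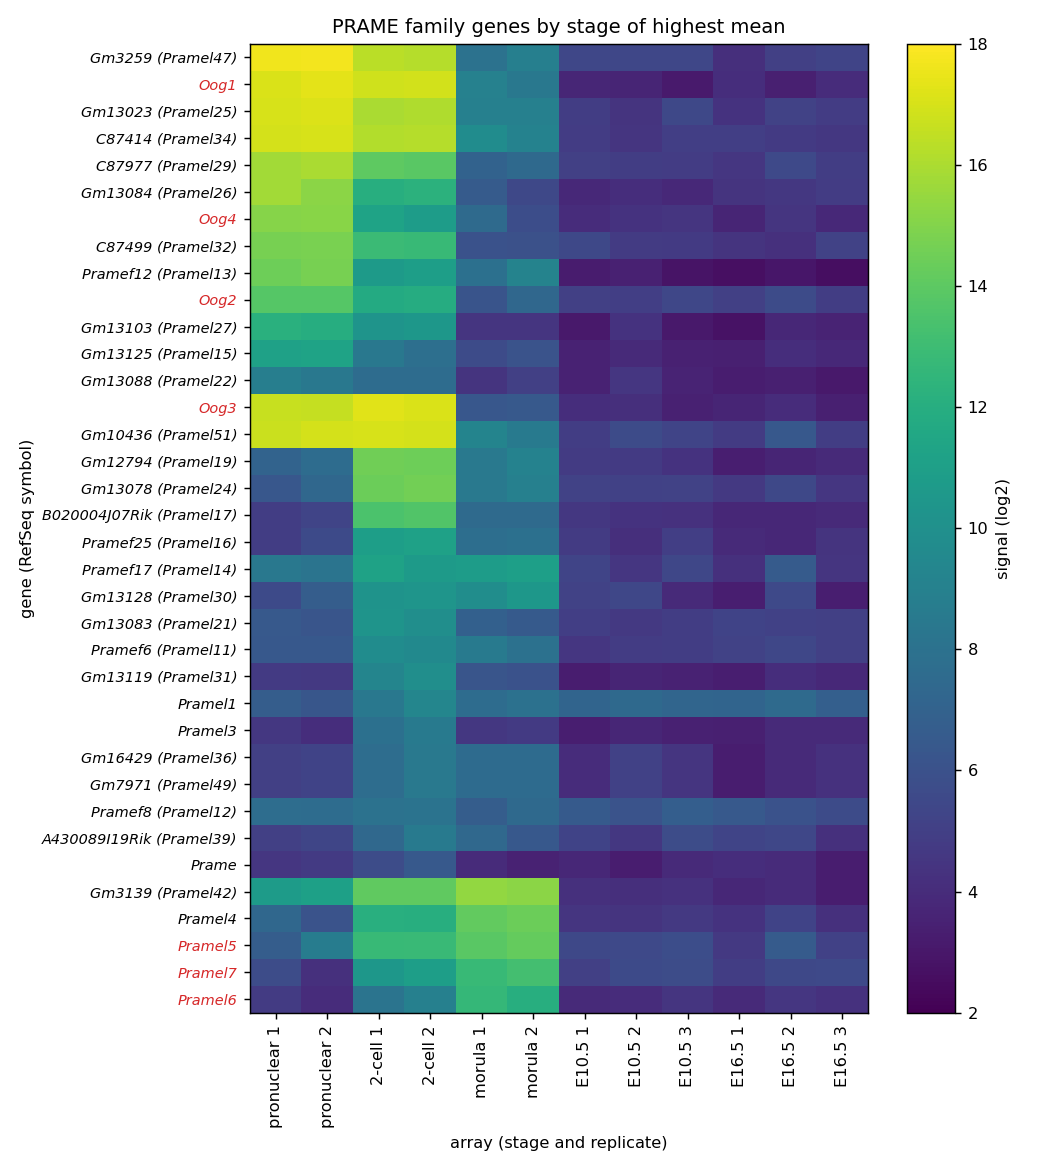
Signal (log2, colour) of the 36 PRAME family genes on the 12 arrays, ordered by the stage of their highest mean and within it by that mean, with the 7 members in red. The 13 genes highest at the pronuclear stage are at the top, the 18 highest at the 2-cell stage in the middle and the 5 highest in the morula at the bottom.

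On chromosome 4, 21 of the 36 family genes, among them Oog2, Oog3, Oog4 and Pramel5, lie within 1014 kilobases, from 143394428 to 144408464. Their courses were mixed along it, with 9 genes highest at the pronuclear stage, 10 at the 2-cell stage and 2 in the morula. Oog3 and Oog2 are neighbours, 28053 bases apart. After Oog2 comes C87977 (Pramel29), 9827 bases on, which fell from 15.87 over 13.96 to 7.25, and 57314 bases beyond it lies Pramel5, which ran the other way. The other morula gene of the cluster, Pramel4, is the neighbour of Oog3 on its far side.

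**Figure D4:**
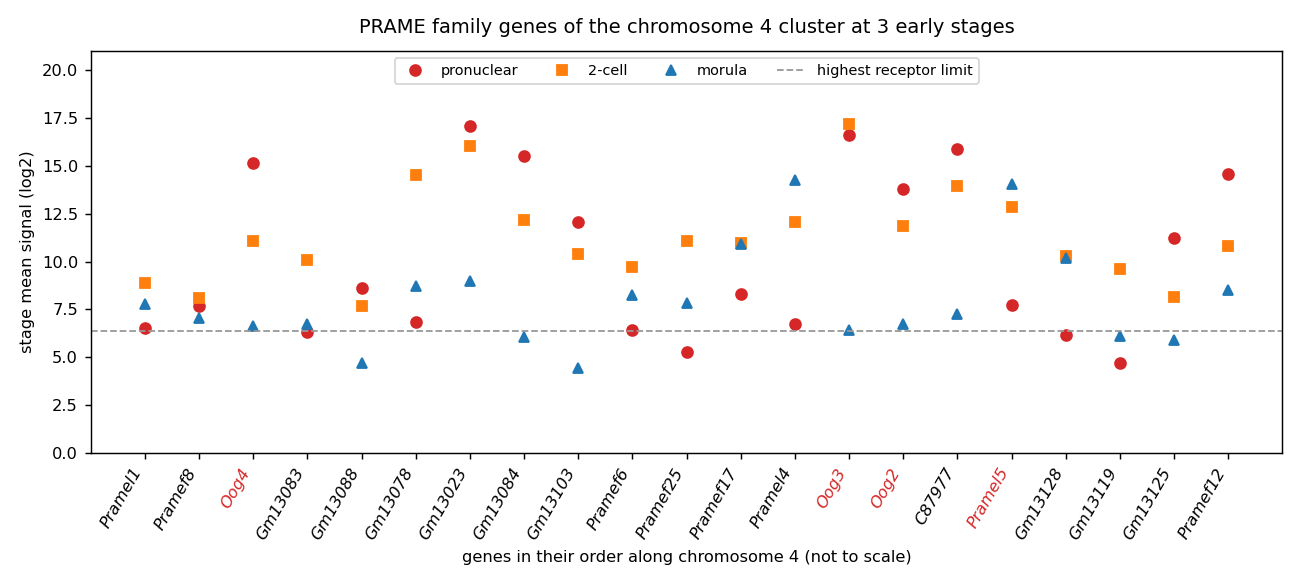
Stage means (log2) at the pronuclear, 2-cell and morula stages of the 21 family genes of the chromosome 4 cluster, in their order along it (not to scale), with the 4 members in red and a dashed line at 6.36, the highest receptor limit of these stages. Triangles for the morula lie on top for Pramel4 (14.28) and Pramel5 (14.07), which stand on either side of Oog3, Oog2 and C87977, whose triangles lie lowest.

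The words shared by the Oog promoters were then looked for in the promoters of 23 of the 29 relatives, those for which RefSeq gave one. Of the 8 relatives highest at the pronuclear stage, 5 held at least 3 of the 6 words and 3 held none. Gm13084 held 6, Gm13023 and C87977 held 5, C87499 (Pramel32) held 4 and Gm13103 (Pramel27) held 3, while Pramef12 (Pramel13), Gm13088 (Pramel22) and Gm13125 (Pramel15) held none. Of the 14 highest at the 2-cell stage, 2 held 1 word and 12 held none, and Pramel4, the 1 highest in the morula, held none. These counts describe copies of related genes and were made after the words had been read from the members, so no test was applied.

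Genes that the proteins of the family are known to act on or answer to were counted from lists of their pathways. Of 14 measured genes of the cullin 2 ligase and of DNA methylation, 3 rose and 4 fell from the pronuclear to the 2-cell stage (median −0.24). From there to the morula 7 rose and 4 fell (median 0.55). Of all probe sets, 15.6% rose and 20.0% fell at the first of these steps, and 20.0% rose and 20.0% fell at the second. Uhrf1, which brings the maintenance methyltransferase to replicated DNA and is the known target of mouse PRAMEL7, fell from 16.07 to 12.02 and 10.41 while Pramel7 rose (−4.05 ± 0.348, adjusted p = 2.96e-07, and −1.61 ± 0.348, adjusted p = 0.00151). Dnmt1, that methyltransferase, fell at both steps too, with changes of −1.35 (adjusted p = 0.00214) and −1.65 (adjusted p = 0.000345). These are RNA signals and say nothing of the proteins. Cul2, the cullin, stood at 9.07 and 8.98 (−0.09 ± 0.288, adjusted p = 0.848) and rose by 3.74 to the morula (adjusted p = 6.13e-08). Tceb2, which encodes elongin B, the adaptor of that ligase, rose by 3.62 to the 2-cell stage. Of the methylcytosine oxidases, Tet3, the one of the oocyte, changed by −2.56 and −2.11 at the 2 steps, Tet1 rose by 2.03 to the 2-cell stage, and Tet2 rose by 7.5 to the morula, to a mean of 14.76.

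Of 12 genes of LIF and STAT3 signalling, 3 rose and 4 fell to the 2-cell stage (median −0.08), against 15.6% and 20.0% of all probe sets. To the morula 2 rose and 5 fell (median −0.40), against 20.0% and 20.0%. Il6st, which encodes the shared receptor subunit gp130, fell by 1.93 and then fell by 6.07, to a mean of 6.37 in the morula. The RNA signals of this list say nothing of the proteins, and their part in the course of Pramel6 and Pramel7 was not tested. Stat3 fell from 11.82 to 10.11 (−1.71 ± 0.444, adjusted p = 0.0065) and stood at 9.98 in the morula. The LIF receptor gene Lifr was within the background range at all 3 early stages, at 5.48, 4.86 and 4.83. The kinase gene Jak2 fell by 5.28 to the morula, and Gbx2, a homeobox gene, fell by 4.24 to the 2-cell stage. The kinase genes Pim3 and Pim1 rose by 3.70 and 3.49 to the 2-cell stage, and the transcription factor gene Tfcp2l1 by 4.81 and Lif itself by 1.71 to the morula, where Lif reached 5.65, within the background range.

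Of 10 genes of Ral and Ras signalling, 1 rose and 2 fell to the 2-cell stage (median −0.13), against 15.6% and 20.0% of all probe sets. To the morula 3 rose and 1 fell (median 0.12), against 20.0% and 20.0%. Ralgds, whose protein is the known partner of mouse OOG1, fell from 8.76 to 7.21 (−1.56 ± 0.362, adjusted p = 0.00301) and stood at 7.26 in the morula (0.06 ± 0.362, adjusted p = 0.914). Hras fell by 1.22 to the 2-cell stage (adjusted p = 0.00285), and Rap1a rose by 0.76 (adjusted p = 0.0374), a call that was lost without any 1 of the pronuclear or 2-cell pools, or the first E10.5 array, and whose adjusted p ranged over the alternatives from 0.00665 to 0.177. To the morula Rgl2 and Ralb rose by 1.41 (adjusted p = 0.000755) and 1.29 (adjusted p = 0.0127), and Rgl1, a relative of Ralgds, fell by 1.26 (adjusted p = 0.00558). The means of Rgl2 (3.94 and 5.35) and of Rgl1 (6.12 and 4.85) lay within the receptor range at both the 2-cell and the morula stage. The call of Ralb was lost without the first 2-cell pool (1.02, adjusted p = 0.1) or the second morula pool (0.88, adjusted p = 0.138) and in the fit of only the 2 stages compared (1.29, adjusted p = 0.0507), and that of Rgl1 without the first morula pool (−1.05, adjusted p = 0.0533).

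PRAME family genes are near copies of each other, and a probe set can take up RNA of more than one. For each member the probe set with the most similar signals differed from it by at least 0.91 on some array, and the largest such gap, 1.64, was that of Pramel5, with Dppa4. Among the relatives the probe sets of Gm16429 (Pramel36) and Gm7971 (Pramel49) held identical values on every array. Whether the probes of members and their relatives tell the copies apart was not tested.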

How the data were processed

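Whole mouse embryos of 5 stages were measured on 12 Clariom S Mouse arrays, and stages were taken from the sample titles. The authors deposited gene-level log2 signals made with SST-RMA (robust multi-array averaging after signal space transformation) and annotation na36 on mm10, per the file headers. The Transcriptome Analysis Console is named in the submitters' processing notes, with no version. The deposited table also holds, per the file headers, stage means (log2) and standard deviations, a score per stage that was not used, the F test p-value and false discovery rate, and flags of expression. A second deposited table differed from it in 0 probe sets at a tolerance of 0.000001 log2 units.

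Of 22206 probe sets, 21367 carried 1 gene symbol, 836 several and 3 none. Those with 1 symbol were kept, for each gene the one brightest over all arrays (211 left out), and the Oog1 probe set, which lists several, was added. One model of the 5 stages was fitted to 21157 probe sets by lmFit and eBayes of limma 3.58.1 (R 4.3.3), without covariates, so that the stages share 1 estimate of the spread. The contrasts were two-sided, and the number of arrays limits the precision. The fit was tested on simulated data. Promoters were aligned globally with Biopython 1.88 (match 2, mismatch −1, gap opening −4 and extension −0.5), and matplotlib 3.10.9 under Python 3.11.15 made the figures.

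The members and the gene lists were chosen with earlier results of these data known. Named were all members, the 4 relatives with the highest stage mean, taken both from all 29 and from the 9 found by name, those with the largest rise and fall past the threshold at each step, the 3 genes most like each member, and from each pathway list the 2 largest rises and falls at the first 2 steps, with Uhrf1, Cul2, Dnmt1, Stat3, Lifr and Ralgds. C87977, Prame and the relatives named for their promoters or for a step beside the 2-cell stage that did not pass were chosen after their values were seen. Replicate numbers were not used to pair the samples in the main fit. Deviations of same-numbered arrays from their stage means correlated between −0.11 and 0.046 over 21 pairs, and 0 pairs were over 0.1. With 2 arrays in each early stage these deviations mirror each other, so the values among early stages repeat. The pairs are therefore not all separate checks.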

Additional observations from a re-analysis of the deposited data

How the results depend on the processing

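Each result was recomputed with a block for the replicate number, array weights, a prior with an intensity trend, cyclic loess or renewed quantile normalization, centring on the upper quartile or on the median of the receptors, without dim probe sets, with other choices of probe set per gene, an adjusted p of 0.01, a change of at least 1 log2 unit, fits of only the stages compared or of the 6 early arrays, and without each array in turn. Over these, 1052 results of the members kept their direction and side of the threshold, 0 lost their call, 1 gained it (Pramel5 from the 2-cell stage to the morula, given above), and 11 changed sign, all between E10.5 and E16.5. There the values by cyclic loess were 0.13 for Pramel5, −0.10 for Pramel6 and 0.06 for Oog3, and by quantile normalization −0.17 for Oog2. Without single arrays that comparison ran from −0.71 to 0.25 for Pramel5, from −0.04 to 0.26 for Pramel6, from −0.36 to 0.04 for Pramel7 and from −0.19 to 0.20 for Oog2. None of these values passed, and the cause was not tested. Many settings could not move the log2 change of a member, such as another choice of probe set or leaving out an array of a stage not compared. The count of 1052 is therefore not one of separate checks.

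Uncalled changes near 0 also changed sign among the other genes. From the pronuclear to the 2-cell stage Cul2 stood at 0.09 by quantile normalization, 0.03 by cyclic loess and 0.10 centred on the upper quartile, and from −0.29 to 0.11 without single arrays, and Gm10436 at −0.02 centred on the receptor median. From the 2-cell stage to the morula quantile normalization gave 0.03 for Stat3 and 0.09 for Pramef17, cyclic loess 0.06 for Lifr and 0.09 for Pramef17, the upper quartile 0.09 for Stat3, 0.19 for Lifr and 0.20 for Pramef17, and the receptor median −0.03 for Ralgds. Without single arrays these ran from −0.12 to 0.07 for Lifr, from −0.15 to 0.26 for Ralgds and from −0.27 to 0.24 for Pramef17.

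Scaling moved the counts over all probe sets. The median change of all probe sets shifted to between −0.20 and 0.32 when arrays were centred on the receptor median, and to between −0.43 and 0.56 when centred on the upper quartile. From the morula to E10.5, 5335 rose and 5639 fell as reported, and 7036 rose and 3393 fell centred on the receptor median. From the pronuclear stage to the morula, 5030 rose and 5062 fell as reported, 7600 rose and 4137 fell centred on the upper quartile, and 3653 rose and 5643 fell centred on the receptor median. In the 6 early arrays alone, with fewer stages to differ between, 10503 probe sets differed in place of 16697.

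With the replicate number as a block, 3 members rose and 2 fell from the pronuclear to the 2-cell stage, 2 rose and 4 fell from there to the morula, and 7 fell to E10.5, as without it, and 3138 of all probe sets rose at the first step in place of 3303. At the first step the calls of C87414 (adjusted p = 0.0608) and Rap1a (adjusted p = 0.0565) were lost with the block, and no other call of a named gene was.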

Other observations

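Of the 46 probe sets of the family on the array, 10 were outside the comparisons, and their courses varied. A second probe set of C87414 had means of 18.27, 16.76 and 7.80 at the 3 early stages and of 3.65 and 3.91 at E10.5 and E16.5. The probe set that lists Gm3286 with D5Ertd577e was high and level through the early embryo, at 14.25, 14.49 and 14.36, and stood at 5.90 and 5.71 later, which no member did. The probe set that lists BC080695 with Gm13057 stood at 5.51, 9.30 and 5.83 at the early stages, and the one that lists Gm7978 with BC061212 stayed low, at 5.01, 6.06 and 6.26. Of 4 further probe sets that list A430089I19Rik (Pramel39), 1 was highest in the morula, at 5.29, 7.93 and 8.19, whereas the probe set of A430089I19Rik that was compared had means of 5.18, 7.97 and 6.91. A further probe set of Gm3139 had means of 10.55, 14.18 and 15.06 at the early stages.

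The probe sets of Gm16429 (Pramel36) and Gm7971 (Pramel49) held identical values on all arrays, with a largest difference of 0, so they count as 1 measurement of 2 near copies, although they stand as 2 among the 29 relatives above. A pair of probe sets of Gm3139 was identical in the same way.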
